A study of Oryza sativa Indica Group with 6 samples.

Results

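Among the transcript clusters measured in whole rice seedlings, 49 were lower in wild-type replicates 1 and 2 and *Abp57*-overexpressing replicate 1 than in the other arrays. Each of the 49 belongs to a different gene. They were chosen from the signals themselves: the lowest of overexpressing replicates 2 and 3 and wild-type replicate 3 had to exceed the highest of overexpressing replicate 1 and wild-type replicates 1 and 2 by at least 0.6 on the log2 scale. This difference is called the gap, overexpressing replicates 2 and 3 and wild-type replicate 3 are called the high arrays, and the others are called the low arrays. The high arrays hold 2 overexpressing arrays and 1 wild-type array, so neither side is a genotype. Of 15299 clusters paired with 1 gene in the platform table the 49 are 0.32%, and 98 clusters met the same gap the opposite way, with the low arrays on top. Clusters of the WRKY and prx series were to be left out, but 0 of the 11 measured under such names met the gap. This went by gene name only, and members without such a name were not checked for either family. Because the signals of all 6 arrays chose the clusters, the gap and everything derived from it is a description and was not tested.

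The overexpressing seedlings grew from T3 seeds of rice transformed with *Agrobacterium*, and the controls were wild-type plants of cultivar MR219, the background the sample records give for all arrays. Both were raised for 10 days on MS medium, given as diluted in the sample records, and whole seedlings, root and shoot, were used. Each genotype had 3 biological replicates, each a pool of at least 3 seedlings, and 1 Affymetrix Rice (Cn) Gene 1.0 ST array was run per pool. The promoter of the transgene, the number of transformed lines and what a replicate number stands for (a plate, a day or an extraction) are not given in the sources used here. In whole seedlings a larger share of a tissue and more RNA per cell cannot be told apart. The signals are log2 values made by RMA, and 1 unit is a 2-fold difference of signal.

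The named members fall into gene families with well known roles. NAC proteins are plant transcription factors that act in growth, senescence and the response to stress. Family 1 beta-glucosidases (BGLU) cleave glucose from stored glucosides, among them conjugates of hormones and defence compounds, and chitinases break down the chitin of fungal walls. PDX proteins take part in the synthesis of vitamin B6, and nucleoredoxins are thioredoxin-like enzymes that act on protein disulfides. Of the 49 genes, 7 have such a name in the tables used here and 42 are known by an NCBI identifier only, so no role is given for them. No sequences of the genes were used here.

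The gap ran from 0.60 to 1.61, with a median of 0.74, against a median of -0.37 over all clusters with 1 gene. The mean of the high arrays exceeded that of the low arrays by 0.69 to 3.03, with a median of 1.20, and by at least 1 in 38 of the 49 clusters. In the median member, the 3 high arrays spanned 0.58 and the 3 low arrays 0.30. The gap was wider than the span on both sides in 34 members, so that in the other 15 the arrays of at least one side spanned as much as the gap or more. Their mean signals over the 6 arrays ran from 3.78 to 11.02, and 40 lay above and 9 below 5.25, the median of all clusters. Each member had 6 signals that no other cluster shared.

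**Figure D1:**
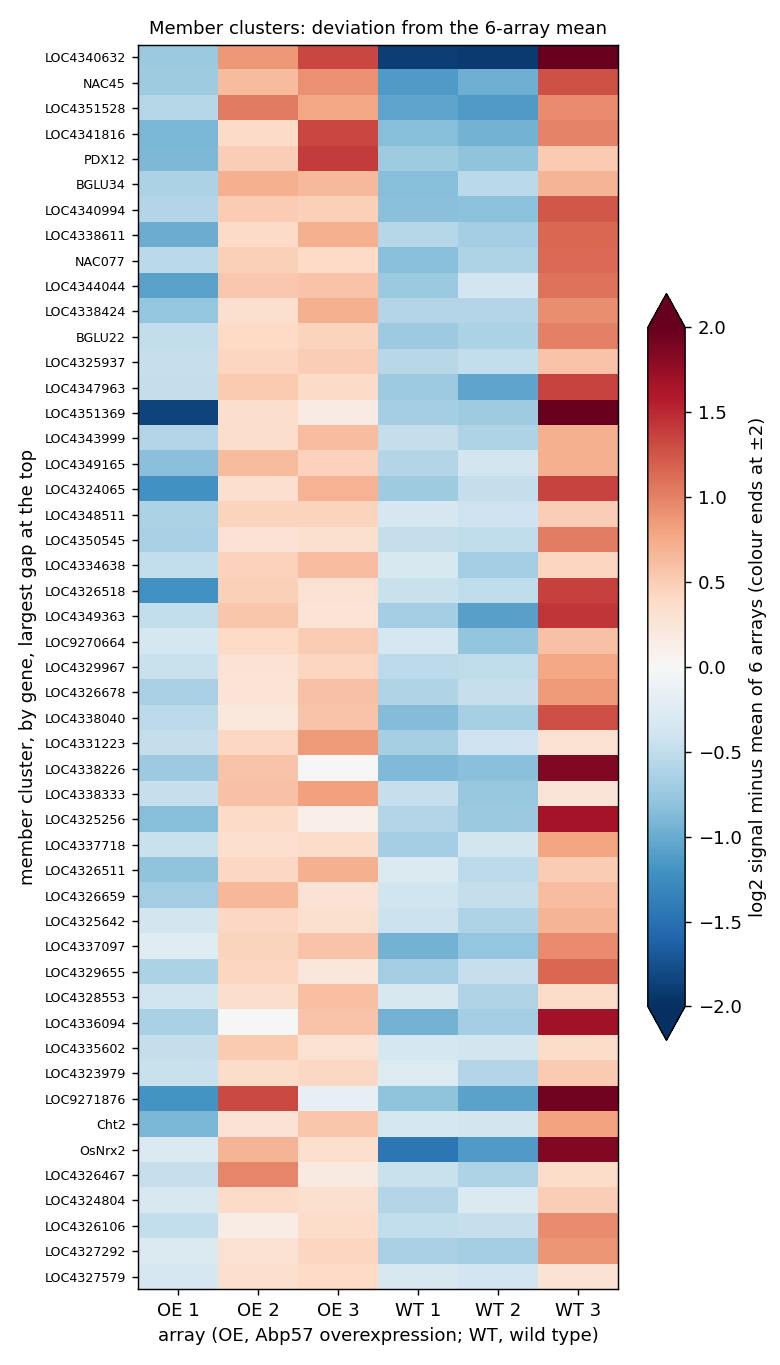
Log2 signal of the 49 member clusters minus the mean of the 6 arrays (colour), with a row for each gene ordered by gap and a column for each array; OE is *Abp57* overexpression and WT wild type. Columns OE 2, OE 3 and WT 3 are mostly above the mean, and the strongest deviations are in WT 3, where the median is 0.94.

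Wild-type replicate 3 stood out on the high side. The median deviation of the members from their 6-array mean was -0.58, 0.41 and 0.45 in overexpressing replicates 1, 2 and 3 and -0.59, -0.61 and 0.94 in wild-type replicates 1, 2 and 3. Over all clusters of the table that median stayed between -0.05 and 0.03 on every array. Wild-type replicate 3 had the highest signal of all arrays in 36 members, overexpressing replicate 3 in 8 and overexpressing replicate 2 in 5. On the low side no array stood out: the lowest signal was in overexpressing replicate 1 for 17 members, in wild-type replicate 1 for 17 and in wild-type replicate 2 for 15.

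*NAC45* and *NAC077* were the members that carry the name of a transcription factor. *NAC45* reached 6.94, 8.30 and 8.58 in overexpressing replicates 1, 2 and 3 and 6.53, 6.68 and 8.93 in wild-type replicates 1, 2 and 3, with a gap of 1.36. *NAC077* was dimmer, at 5.33, 6.35 and 6.26 in the overexpressing replicates and 5.03, 5.26 and 7.002 in the wild type, with a gap of 0.94. In both, wild-type replicate 3 was the highest array, and overexpressing replicate 1 was the highest of the low arrays. The signals of the genotypes overlapped, as they must for every member.

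The NAC family was looked at because of these members, after their values were seen, so its count was not tested and nothing is read from it. Apart from the members, 4 of the 9 genes measured under a NAC name, each represented by its brightest cluster, had all high arrays above all low arrays and 5 did not. Genes without such a name were not checked for the family. That order was seen in 10.8% of all 14662 genes. The 4 were *NAC068*, *NAC074*, *NAC071* and *NAC067*, with gaps of 0.38, 0.33, 0.20 and 0.19. *NAC074*, a bright cluster, had 8.98, 9.43 and 9.53 in overexpressing replicates 1, 2 and 3 and 9.09, 9.10 and 9.85 in the wild type. *DBS1* was matched only through a synonym that holds the letters NAC, and whether it encodes a NAC protein was not checked. It went the other way, with 6.24, 5.27 and 5.36 in the overexpressing replicates and 6.58, 6.48 and 3.80 in the wild type. It stays counted among the 9 genes here and in the list of transcription factors below. The median difference of high minus low arrays was 0.37 over the 9 genes and 0.48 over all 11, which include the members that the rule placed there. After quantile and cyclic loess normalization it was 0.49 and 0.46 over the 11. The 8 genes with WRKY or prx names had a median of 0.05. In 3 of them the high arrays lay above the low ones, against 10.8% of all genes.

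*BGLU34* and *BGLU22* were the members that carry a BGLU name. *BGLU34* had even high arrays, at 6.52, 7.86 and 7.80 in overexpressing replicates 1, 2 and 3 and 6.30, 6.61 and 7.83 in wild-type replicates 1, 2 and 3. Its 3 high signals spanned 0.06, less than in all but 1 of the members, LOC4348511. *BGLU22* had 5.45, 6.34 and 6.39 in the overexpressing replicates and 5.22, 5.31 and 6.95 in the wild type, with the highest value again in wild-type replicate 3. None of the other 20 measured BGLU genes had all high arrays above the low ones, an order seen in 10.8% of all genes. In 3 the low arrays were on top, against 12.3% of all genes. The family of 22 had a median difference of high minus low arrays of 0.06. *BGLU26* had a difference of 0.80, but its sides overlapped. *BGLU16* had 5.47, 5.92 and 6.31 in the overexpressing replicates and 6.08, 6.18 and 8.62 in the wild type, so that only wild-type replicate 3 stood apart. *BGLU8* ran the opposite way, with 7.41, 6.19 and 6.79 in the overexpressing replicates and 7.18, 6.98 and 5.18 in the wild type.

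**Figure D2:**
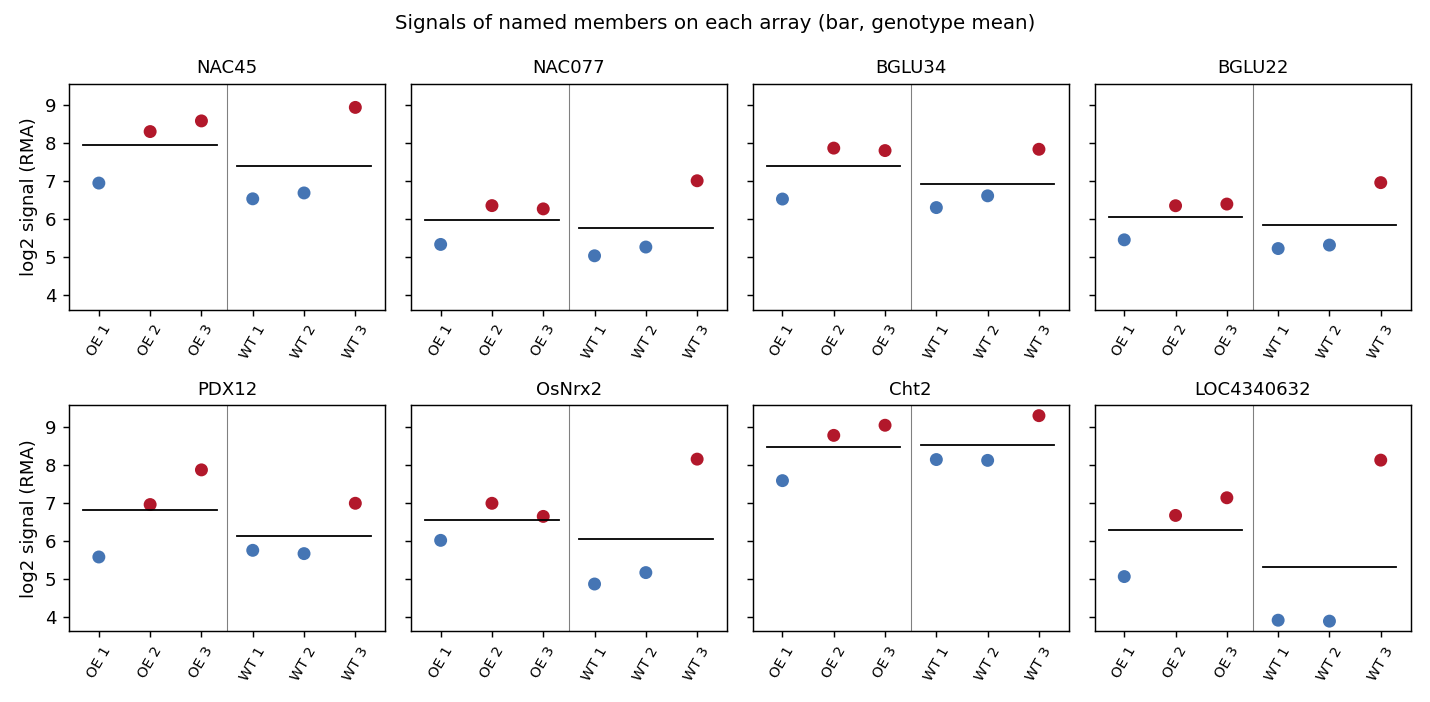
Log2 signal (y) of the 7 members with a gene name and of LOC4340632, the member of largest gap, on each array (x), with overexpression (OE) left and wild type (WT) right; red points are the high arrays, blue points the low arrays, and bars the mean of each genotype. Each genotype holds red and blue points in every panel, and the points of wild-type replicate 3 reach 9.29 in *Cht2*.

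*PDX12*, of the vitamin B6 synthesis family, differed from most members in its highest array. It had 5.57, 6.95 and 7.86 in overexpressing replicates 1, 2 and 3 and 5.74, 5.66 and 6.98 in wild-type replicates 1, 2 and 3, a gap of 1.21. Overexpressing replicate 3 lay above the other high arrays by more than their distance from each other. *PDX12* was the only gene measured under a PDX name, so the family cannot be described.

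*OsNrx2*, a nucleoredoxin gene, had 6.01, 6.98 and 6.64 in the overexpressing replicates and 4.86, 5.16 and 8.14 in the wild type. Its mean over the high arrays was 3.77 times that over the low arrays, but its gap was only 0.63, since overexpressing replicates 1 and 3 were close to each other. The other gene measured under a nucleoredoxin name, *OsNrx1-2*, was bright and nearly flat. It had 10.83, 11.08 and 11.10 in the overexpressing replicates and 10.76, 10.84 and 11.06 in the wild type. It too had the high arrays on top, by 0.22.

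*Cht2*, a chitinase gene, had 7.58, 8.77 and 9.04 in the overexpressing replicates and 8.13, 8.11 and 9.29 in the wild type. Overexpressing replicate 1 was the lowest array and wild-type replicate 3 the highest. *Cht1*, its relative by name, had a gap of 0.33. The other 7 measured chitinase genes of that series had overlapping sides or the opposite order, each in its brightest cluster paired with that gene alone. *Chia1d* had the opposite order, with 9.44, 9.02 and 8.96 in the overexpressing replicates and 9.47, 9.12 and 8.21 in the wild type. A further cluster, paired with *Chia1d* and another gene, met the gap at 1.35. Which of these genes its signal comes from was not tested.

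Among members known by an identifier, LOC4340632 had the largest gap. Its signals were 5.05, 6.66 and 7.13 in overexpressing replicates 1, 2 and 3 and 3.90, 3.88 and 8.12 in wild-type replicates 1, 2 and 3. The high mean was 8.14 times the low mean, and within each side the wild-type arrays lay outermost, so that this cluster had the widest range of the low arrays, 1.17. LOC4351528 had 5.59, 7.21 and 6.94 in the overexpressing replicates and 5.11, 5.03 and 7.10 in the wild type. LOC4341816 had 7.05, 8.35 and 9.32 in the overexpressing replicates and 7.12, 7.03 and 8.97 in the wild type. In both, wild-type replicate 3 lay between the overexpressing arrays of the high side. The remaining members with a gap over 0.85 were LOC4340994, LOC4338611, LOC4344044, LOC4338424, LOC4325937 and LOC4347963, whose gaps lay between 0.86 and 1.06.

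A few members were marked mainly by wild-type replicate 3. In 5 it exceeded both other high arrays by more than 1. LOC4351369 was the extreme, with 5.10, 7.29 and 7.11 in the overexpressing replicates and 6.26, 6.23 and 9.68 in the wild type, a lead of 2.39 over the next array. LOC4338226, LOC4325256, *OsNrx2* and LOC4336094 led by 1.28, 1.27, 1.16 and 1.10. LOC4325256 had 7.37, 8.61 and 8.36 in the overexpressing replicates against 7.64, 7.49 and 9.89 in the wild type. In 4 members wild-type replicate 3 was instead the lowest of the high arrays: LOC4338333, LOC4331223, LOC4334638 and LOC4327579. LOC4338333, the dimmest member, had 3.32, 4.37 and 4.60 in the overexpressing replicates and 3.33, 3.03 and 4.04 in the wild type.

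The 5 brightest members had a mean difference of the sides between 0.79 and 1.496. LOC4326659 had 10.33, 11.68 and 11.31 in the overexpressing replicates and 10.62, 10.54 and 11.63 in the wild type, and LOC4335602 had 10.51, 11.50 and 11.29 in the overexpressing replicates and 10.63, 10.61 and 11.35 in the wild type. LOC4340994 had 10.14, 11.23 and 11.20 in the overexpressing replicates against 9.88, 9.90 and 11.97 in the wild type. LOC4338611 and LOC4326518 were lowest in overexpressing replicate 1, at 9.70 and 8.84, and highest in wild-type replicate 3, at 11.85 and 11.43.

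Members just inside the limit were LOC4327579, LOC4327292 and LOC4326106, with gaps of 0.604, 0.604 and 0.606. Those just outside were LOC4352761, LOC4347039 and LOC4346682, with 0.592, 0.590 and 0.589. LOC4346682 had 5.42, 6.01 and 6.02 in the overexpressing replicates and 5.17, 4.68 and 6.57 in the wild type, a mean difference of the sides of 1.11 that is larger than the 0.69 of LOC4327579. The limit therefore ranks clusters by the nearest pair of arrays and not by the mean difference.

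For 5 member genes the array holds a further cluster, 6 in all, whose signals the rule did not use to choose the member. None of the 6 met the gap. In 2 the high arrays lay above the low ones, against 10.8% of all genes by their brightest cluster. All 6 had a higher mean on the high side, by 0.07 to 0.86. LOC4349165 had a gap of 0.82 in its member cluster and 0.25 in the other, where its signals were 7.86, 8.11 and 8.20 in the overexpressing replicates and 7.35, 7.74 and 9.22 in the wild type. LOC4334638 had 0.75 and 0.19. For LOC9271876 the member cluster was the dimmest of 3, with a mean of 4.53. It had 3.33, 5.84 and 4.36 in the overexpressing replicates and 3.72, 3.46 and 6.45 in the wild type. The other clusters of that gene averaged 5.96 and 6.005, with gaps of -0.36 and -0.14. The second cluster of *BGLU22* was dim, with a mean of 2.995. Only wild-type replicate 3 stood out in it, with signals of 2.38, 2.98 and 2.65 in the overexpressing replicates and 2.87, 2.75 and 4.34 in the wild type.

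The genotype comparison of the study, overexpressing minus wild-type rice, was fitted for all 41770 clusters with limma. With a fold over 2 and an unadjusted p under 0.05, the thresholds of the methods, 0 of the 49 members were called higher and 0 lower, where 0.335% and 0.172% of all clusters were. At an adjusted p under 0.05 it was 0 members, against 0.0144% of all clusters, and at an unadjusted p under 0.05 with no limit on the fold again 0, against 6.88%. The methods' own test also called 0 members. This result is largely fixed by the choice of the clusters, since a wild-type array lies on the high side and an overexpressing array on the low side in each of them, and nothing is read from it.

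The log2 difference between the genotypes ran from -0.89 to 0.98 over the members, with a median of 0.23, against -0.03 over all clusters. It was positive in 40 of 49, where 44.3% of all clusters had a positive difference. The rule puts 2 overexpressing arrays and 1 wild-type array on the high side. This favours a positive difference but does not force it, and 9 members had a negative one. The standard error was large, with a median of 0.47 over the members and 0.17 over all clusters. LOC4340632 had the largest value, 0.98 (standard error 1.09, adjusted p = 0.88 from limma), with mean signals of 6.28 ± 1.09 in overexpressing rice and 5.30 ± 2.44 in the wild type (SD, n = 3). LOC4351369 had the lowest, -0.89 (standard error 0.95, adjusted p = 0.87 from limma), with 6.50 ± 1.22 in overexpressing rice and 7.39 ± 1.98 in the wild type (SD, n = 3). LOC4351528, *PDX12* and LOC4338333 followed the first with 0.83, 0.67 and 0.63, and LOC4326518, LOC4325256 and LOC4324065 followed the last with -0.28, -0.23 and -0.12. None of these passed, and LOC4338333 had the lowest unadjusted p of the members, 0.13 (limma).

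**Figure D3:**
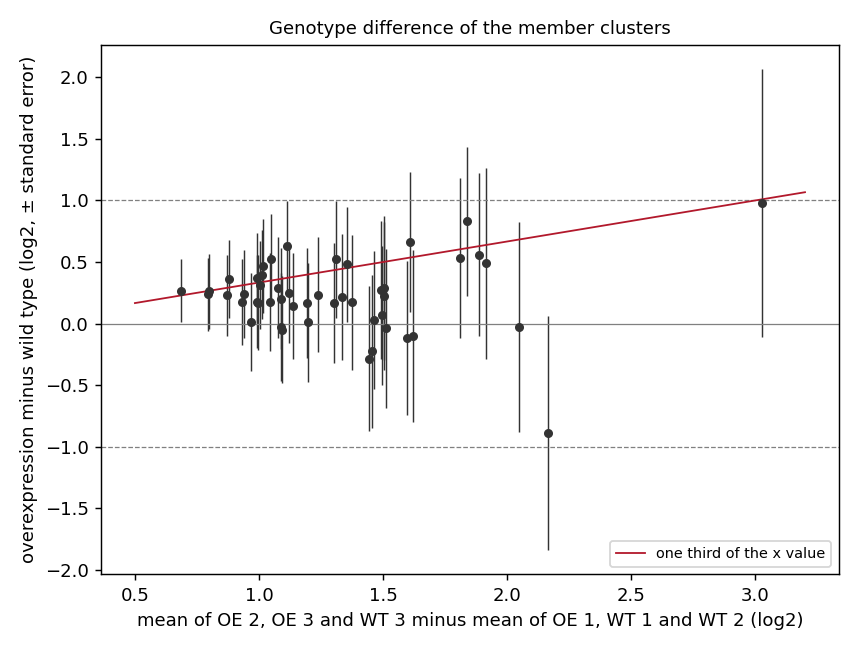
Overexpression minus wild-type difference of each of the 49 members (y, log2, with the standard error from limma) against the mean of the high arrays minus the mean of the low arrays (x, log2); the red line is x divided by 3, which a cluster with flat sides would have, and dashed lines mark a 2-fold difference. No point is beyond a 2-fold difference, and the values run from -0.89 to 0.98.

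The count of calls moved when single arrays were left out. Without wild-type replicate 3, 6 members were called higher and 0 lower, where 0.531% and 0.469% of all clusters were. The 6 were LOC4340632, *OsNrx2*, LOC4351528, *NAC45*, LOC4337097 and LOC4347963, with log2 differences of 2.39, 1.54, 1.51, 1.34, 1.12 and 1.03. Without overexpressing replicate 1, *PDX12* and LOC4338333 were called higher, at 1.28 and 1.02, and 0 members lower, against 0.249% and 0.129% of all clusters. With array weights, which give less weight to arrays that deviate, 4 were called higher and 0 lower, against 0.393% and 0.292% of all clusters. The 4 were LOC4340632, LOC4351528, *NAC45* and *PDX12*, at 2.03, 1.40, 1.22 and 1.17. Leaving out wild-type replicate 3 leaves only low arrays in the wild type, and leaving out overexpressing replicate 1 leaves only high arrays in the overexpressing rice. Higher values then follow from the rule, and nothing is read from these counts. None of these members passed an adjusted p under 0.05 (limma) under any of these settings.

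The same differences can be given within each side, as a description. On the high side, the mean of overexpressing replicates 2 and 3 minus wild-type replicate 3 ran from -2.48 to 0.44 over the members, with a median of -0.43, against -0.01 over all clusters with 1 gene. On the low side, overexpressing replicate 1 minus the mean of wild-type replicates 1 and 2 ran from -1.15 to 1.16, with a median of 0.06, against 0.03. LOC4351369 had the lowest value on both sides. LOC4340632 and *OsNrx2* had the highest values on the low side, 1.16 and 1.00, and were among the lower ones on the high side, at -1.22 and -1.34. In these the wild-type arrays were far apart and the overexpressing arrays lay between them.

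The members were spread over 10 of the 12 chromosomes in the reference gene table. Chromosome 1 held 15, chromosome 5 held 8 and chromosome 10 held 7, or 0.695%, 0.637% and 0.997% of the genes measured there, while chromosomes 8 and 9 held 0 of 1000 and 778. Chromosome 3, with 2063 measured genes, held 1. These shares are given with no test. *NAC077* and LOC4351369 were the only members within 5 genes of each other. They are direct neighbours on chromosome 12. The next measured genes on both sides, *ADPase* and LOC4351371, had gaps of -1.33 and -0.52, so the pattern did not extend to them. Whether their transcripts or probes overlap was not tested.

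Markers of dividing tissue ran against the members. Of 19 measured genes of cyclins A and B, CDKB, the MCM helicase, which unwinds DNA for replication, and the origin recognition complex, 0 had the high arrays on top and 13 had the low arrays on top, against 10.8% and 12.3% of 14662 genes, each represented by its brightest cluster. Their median deviation was 0.17, -0.32 and -0.12 in overexpressing replicates 1, 2 and 3 and 0.53, 0.57 and -0.75 in wild-type replicates 1, 2 and 3. *MCM2* had 5.57, 4.56 and 4.99 in overexpressing replicates and 6.05, 5.80 and 3.59 in the wild type. The markers were at their lowest in wild-type replicate 3, the array where most members were highest, and at their highest in wild-type replicates 1 and 2. The part of dividing tissue in the members' signals was not tested. The median difference of high minus low arrays was -0.82 for the markers, and -0.82 and -0.84 after quantile and cyclic loess normalization.

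**Figure D4:**
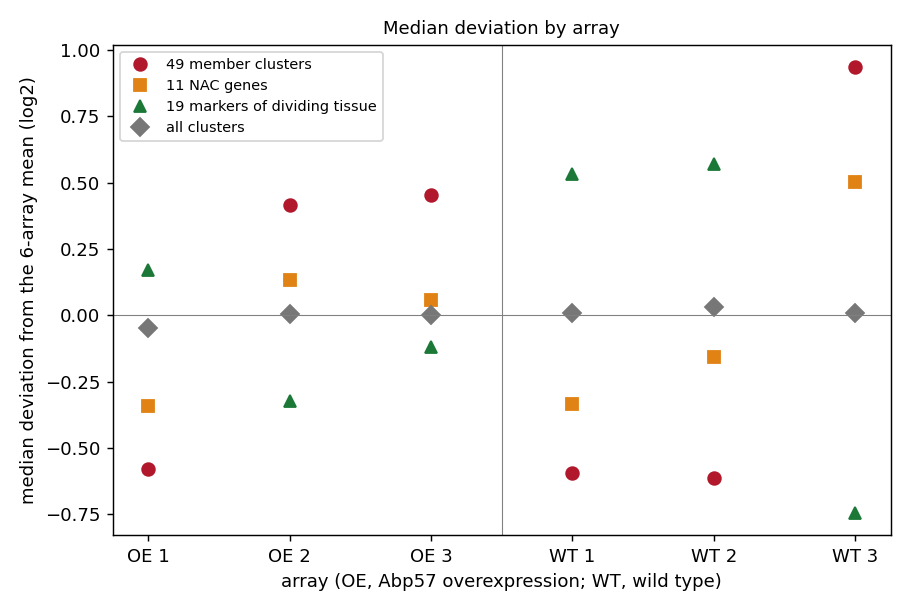
Median deviation from the 6-array mean (y, log2) on each array (x) for the 49 members, the 11 genes matched by a NAC name (2 of which are members, and *DBS1* among the others), the 19 markers of dividing tissue and all clusters; OE is overexpression and WT wild type. In wild-type replicate 3 the members stand at 0.94 and the markers of dividing tissue at -0.75, while all clusters stay within 0.05 of 0.

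The 38 expansins had a median difference of high minus low arrays of -0.08, the 6 nuclear genes of photosynthesis -0.14 and the 11 root genes -0.11, with 1, 0 and 1 genes that had the high arrays on top. The low arrays were on top in 6 expansins, 2 photosynthesis genes and 1 root gene, where 12.3% of all genes had that order. RNA integrity is listed with the methods, and its sample numbers are taken here as those of the arrays. It was highest, and equal, in wild-type replicate 3 and overexpressing replicate 3, which are both high arrays. Overexpressing replicate 2, the remaining high array, shared the lowest value with wild-type replicate 1, a low array. Apart from overexpressing replicate 2, the high arrays thus had higher integrity than the low arrays. Overexpressing replicate 2 also had the lowest absorbance ratios of all samples. The part of RNA quality in the members' signals was not tested.

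Of the lists of stress, hormone and regulatory genes, only those of defence, with *Cht2*, and of transcription factors, with the NAC members, held a member. The high arrays lay on top in 15 of 60 genes of abscisic acid and dehydration, or 25%, where all genes had 10.8%. They did so in 19 of 94 transcription factors, 5 of 27 jasmonate genes, 5 of 35 heat shock genes, 3 of 15 ethylene genes, 3 of 15 defence genes and 3 of 10 senescence genes, counts that include the members among transcription factors and defence genes. The same order was seen in 11 of 68 genes of calcium signalling, 4 of 30 iron genes, 3 of 28 phosphate genes, 2 of 14 nitrogen genes, 1 of 6 glutathione transferases, 1 of 19 cytochrome P450 genes and 0 of 2 receptor-like kinases. Several lists share genes. The 3 genes of the ethylene list with this order were *DREB2D*, *CBF2* and *DREB1H*, which entered that list through a synonym. *ETR4*, *ERS1*, *EIL1*, *ACS1* and *ACO1* on the same list had no gap above 0. The jasmonate repressor gene *JAZ6* came close to the limit, at 7.48, 8.03 and 8.02 in overexpressing replicates 1, 2 and 3 and 7.36, 7.44 and 8.24 in wild-type replicates 1, 2 and 3, a gap of 0.54. *JAZ11* had a gap of 0.47, and the other 8 measured JAZ genes had none above 0. Of the heat stress transcription factors *HSF16* had 7.08, 7.60 and 7.43 in the overexpressing replicates and 6.91, 6.62 and 8.56 in the wild type. In 11 genes of diterpenoid phytoalexin synthesis the high arrays were on top in 0 and the low arrays in 2. The counts were 1 and 3 for 25 phenylpropanoid genes and 2 and 8 for 36 genes of sugars and starch, against 10.8% and 12.3% of all genes. Only 564 of the 14662 genes carry a name on any of these lists, and 3 of the 49 members do, so the lists say little about the other 46.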

How the data were processed

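RNA of 6 seedling pools, 3 overexpressing and 3 wild-type, was measured on 1 array each. The authors normalized the scans by RMA in Affymetrix Expression Console and deposited log2 signals of 41770 transcript clusters, which were used as they are. Probe intensities were not used here. The platform table pairs 15299 clusters with 1 gene, 436 with several and 26035 with none, and names were updated through gene identifiers of the NCBI table of assembly ASM3414082v1, matched for 15298. The array follows subspecies indica and that assembly another subspecies, so no coordinates are given. Chromosomes and gene order are those of the assembly.

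The members, lists and families were chosen with earlier results of these data known. Lists were matched by gene symbol and synonym only, since the tables hold no product names. The transporter list, defined by product names, could not be counted, no gene matched the glycosyltransferase list, and promoter motifs were not searched. A gene in a list was represented by its brightest cluster. Named genes are the 15 members of largest gap, list members, those nearest the limit, the 4 highest and 4 lowest genotype differences and the 5 brightest. *OsNrx2*, LOC4338226, LOC4336094, LOC4331223, LOC4334638, LOC4337097, LOC4349165, LOC9271876 and all genes that are no members, except those nearest the limit, were named after their values were seen.

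The genotype fit used limma 3.58.1 (lmFit, then eBayes) under R 4.3.3 on the whole table, with Benjamini-Hochberg adjusted p-values, and was tested on simulated data. Alternatives were an intensity trend, the methods' test, array weights, a replicate block, quantile and cyclic loess normalization, a filter on the dimmest 25% of clusters, and each array left out in turn. The number of arrays limits the precision. Figures were drawn with matplotlib 3.10.9.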

Additional observations from a re-analysis of the deposited data

How the results depend on the processing

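The number of member clusters, 49, depends on the limit: it was 97 at a gap of 0.5, 18 at 0.8 and 7 at 1.0. It was 55 after quantile and 49 after cyclic loess normalization, of which 44 and 42 were among the 49, and 48 without the dimmest clusters or with 1 cluster per gene. With 1 array left out it ran from 54, without wild-type replicate 3, to 223, without overexpressing replicate 1, with 102 and 90 without overexpressing replicates 2 and 3. It could only grow, since the rule then sets fewer conditions. Members called higher in overexpressing rice numbered 0, 4 with array weights (0.393% of all clusters), and 0 to 6 without 1 array, the most without wild-type replicate 3 (0.531% of all clusters), where the choice of members puts every wild-type array left on the low side. No member was called lower. At the adjusted p the count was 0 under every alternative (limma or the methods' test). The median genotype difference of the members, 0.23, was 0.63 with array weights, 0.68 without wild-type replicate 3, 0.56 without overexpressing replicate 1, 0.09 and 0.07 without overexpressing replicates 2 and 3, and -0.00471 and -0.00732 without wild-type replicates 1 and 2.

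In 270 of 324 comparisons the 25 members named by rule kept both their sign and their call at fold over 2 with an unadjusted p under 0.05. In 10 a member passed, and in 44 the sign turned, for values that did not pass before or after. With quantile and cyclic loess normalization the difference was -0.045 and -0.016 for LOC4338611 and -0.034 and -0.028 for LOC4326106. With array weights it was 0.037 for LOC4351369, 0.36 for *Cht2*, 0.28 for LOC4326518, 0.35 for LOC4325256 and 0.51 for LOC4324065. Without 1 array the difference ran from -0.0034 to 1.17 for LOC4341816, -0.075 to 0.97 for LOC4340994, -0.27 to 0.66 for LOC4338611, -0.15 to 0.84 for *NAC077*, -0.34 to 0.58 for LOC4344044, -0.14 to 0.68 for LOC4338424, -0.071 to 0.80 for *BGLU22*, -0.17 to 1.03 for LOC4347963, -1.47 to 0.25 for LOC4351369, -0.34 to 0.39 for *Cht2*, -0.24 to 0.49 for LOC4326106, -0.61 to 0.33 for LOC4326518, -0.65 to 0.55 for LOC4325256, -0.50 to 0.54 for LOC4324065 and -0.11 to 0.56 for LOC4326659. The cause was not tested.

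With a replicate block 0 members were called. Whether same-numbered arrays were handled together is not given. The correlations of their deviations were 0.345, -0.11 and 0.206 for numbers 1, 2 and 3. They cannot decide it, since arrays of unlike number were not correlated for comparison. The normalizations of the NAC and dividing tissue genes were chosen after seeing the data. The number of arrays limits the precision.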

Other observations

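The gap was also met by 38 clusters that are no members, 37 with no gene in the platform table and 1 with several. Their gaps ran from 0.60 to 1.35, with a median of 0.70. Cluster 16391226, the one with several genes, is paired with *Chia1d* and LOC4327573. It had 6.57, 7.91 and 8.29 in overexpressing replicates 1, 2 and 3 and 6.08, 5.76 and 8.29 in wild-type replicates 1, 2 and 3. Cluster 16514888, with no gene, had 8.34, 9.44 and 9.31 in the overexpressing replicates and 8.35, 8.26 and 9.30 in the wild type, so that both sides were nearly flat. Both were chosen after their values were seen.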
